A study of Mus musculus with 21 samples.

Results

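Mouse liver that lacked both Ezh1 and hepatocyte Ezh2 was compared with mouse liver that lacked Ezh1 alone, at 2 months of age and at 3 months after carbon tetrachloride (CCl4). The double knockout (DKO) is Ezh1-/-Ezh2fl/flAlb-Cre and the single knockout (E1KO) is Ezh1-/-, on a mixed background of 129SV, FVB/N and C57BL/6, so that both groups lack Ezh1 in every cell. Alb-Cre is driven by the albumin promoter and removes the floxed Ezh2 gene in hepatocytes, while the stellate, endothelial and immune cells of the liver keep it. The E1KO label does not name the floxed Ezh2 allele or Cre. The other 2 genotypes, used here for comparison, are WT (Ezh2fl/fl, with Ezh1 and no Cre) and E2KO (Ezh2fl/flAlb-Cre, with Ezh1). CCl4, a toxin that hepatocytes convert to a reactive product, was given intraperitoneally at 2 ml/kg, 2 times a week for 2 weeks from 3 months of age, and liver was taken 24 h after the last dose. The comparison rests on 4 of the 12 RNA samples among the 21 samples of the series: DKO and E1KO at 2 months, and DKO and E1KO with CCl4. Each is 1 column of FPKM (a count of sequenced fragments divided by gene length and by library size) in the deposited table. The sample titles name 3 replicates per group, and the labels do not say how these became 1 column. A difference between a pair of columns therefore has no replicate check. No untreated liver of the age of the CCl4 mice is among the RNA samples. Treatment and age therefore cannot be told apart between the 2 pairs. The 8-month pair was left out because the 8-month E1KO column holds skeletal muscle RNA.

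Ezh1 and Ezh2 are alternative catalytic subunits of Polycomb repressive complex 2 (PRC2), which trimethylates lysine 27 of histone H3. This mark is read by Polycomb repressive complex 1 (PRC1) and keeps developmental regulators, fetal genes and the Cdkn2a locus silent in differentiated cells. Ezh1 is the form found mostly in cells that no longer divide, and Ezh2 the form found mostly in dividing cells, so that the loss of one may be covered by the other. In the liver, PRC2 is also known to act on genes that differ between the sexes under the control of growth hormone.

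The labels were first checked against the targeted genes. Ezh1 stood at 0.07 FPKM in both the E1KO and the DKO column at 2 months and at 0.20 and 0.27 FPKM with CCl4, against 1.96 to 2.50 FPKM in the 4 WT and E2KO columns. Ezh2 stood at 0.80 FPKM in E1KO and 0.74 FPKM in DKO at 2 months, and at 4.68 and 2.51 FPKM with CCl4. Ezh2 was lower in DKO mainly with CCl4, and the difference did not pass the test described below (adjusted p = 0.76, limma). Whole liver holds cells that keep Ezh2, and an RNA with a floxed exon removed can still be counted, so the Ezh2 level is a weak check of the deletion. Each of the 4 columns totalled between 531761 and 653737 FPKM, of which 12.2% to 18.2% came from its 10 highest genes. The number of reads behind a value is unknown. Skeletal muscle genes summed to between 2.64 and 4.24 FPKM over the 8 columns of the 4 genotypes, and Y-linked genes with Xist to between 30.0 and 46.2 FPKM. The defining hepatocyte markers with a row in the table, 7 of 10, were present in all 8 columns.

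Values were compared as log2(FPKM+1), for genes that reached 1 FPKM in 1 or both columns of a pair. A gene was counted as higher or lower in DKO where that value differed by 1 or more, which is 2-fold for an abundant gene and understates the ratio of a low one. Many more genes were higher than lower in DKO, and the CCl4 pair differed more than the 2-month pair. At 2 months 144 of 10299 genes were higher (1.4%) and 82 were lower (0.796%). With CCl4, 382 of 11080 were higher (3.45%) and 223 were lower (2.01%). Gene models of small RNAs (microRNA hairpins, snoRNAs and scaRNAs, taken by their symbols), which jump between 0 and high FPKM values in columns of every genotype, made up 52 of the 144 and 45 of the 82 at 2 months. Without them 92 genes were higher and 37 lower at 2 months, and 341 and 168 with CCl4.

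Over both pairs, 72 of the 9866 genes compared in each were higher in DKO (0.73%), 29 were lower (0.294%) and 19 went in opposite directions (0.193%). The 72 were 50% of the genes higher at 2 months and 18.8% of those higher with CCl4, and the 29 were 35.4% and 13% of the lower ones. Small RNA models accounted for 7 of the 72, 9 of the 29 and 16 of the 19, which leaves 65 higher, 20 lower (Gm12238, a snoRNA in RefSeq, among them) and 3 opposite. For the 65 genes DKO was the highest of the 4 genotypes in both conditions, as it was the lowest for 16 of the 20. The median difference of the 72 was 1.53 at 2 months and 1.96 with CCl4, and that of the 29 was -1.57 and -2.02, against medians over all genes of -0.04 and -0.02. The difference was larger with CCl4 for 50 of the 72 and 23 of the 29. RefSeq lists 64 of the 72 and 16 of the 29 as protein coding.

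The 72 held both genes that E1KO liver hardly expressed and genes it already expressed. In 28 of them E1KO was under 1 FPKM in both pairs, so that they were compared only because DKO was high, and in another 28 E1KO reached 1 FPKM in both. Just inside the limit lay Gpx3 (differences of 1.00 and 1.78) and Nr0b2 (-1.43 and -1.04), and just outside it Apoc2 (0.99 and 1.76) and Saa3 (-0.95 and -1.05). Over the other 9674 genes without small RNA models, the members left out, Spearman's rho between the 2-month and the CCl4 difference was 0.11, a description across genes, which are not independent replicates. Of the 343 such genes past 1 in either pair, 204 (59.5%) had the same sign in both.

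**Figure D1:**
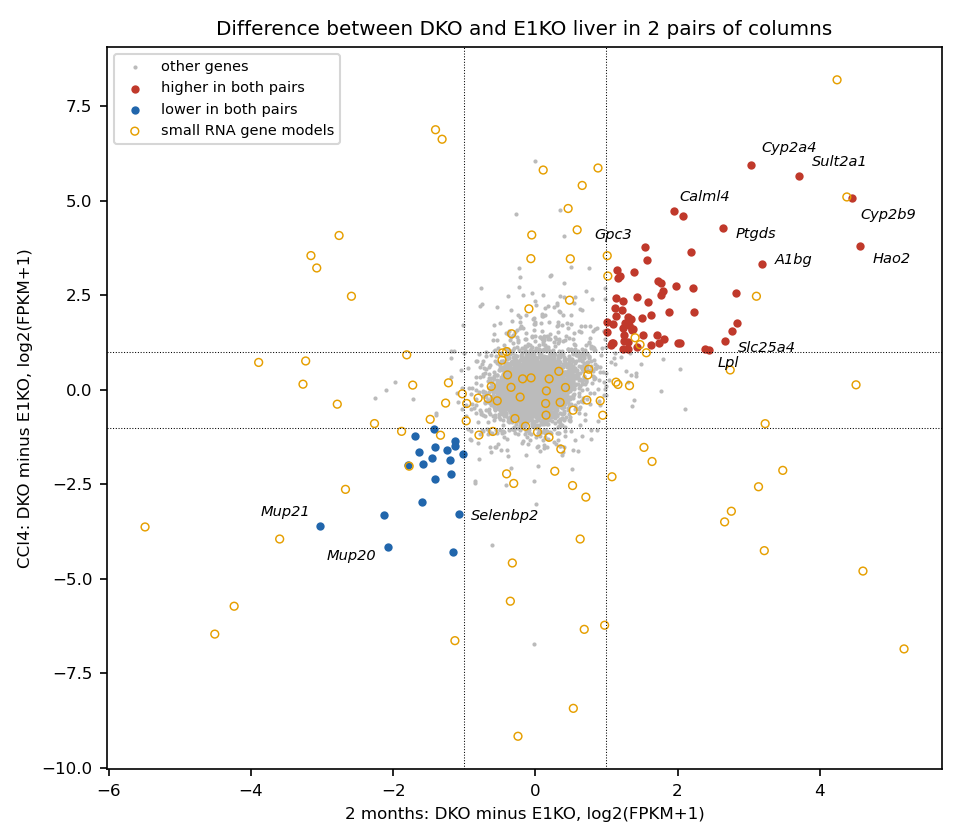
Each point is a gene compared in both pairs, with its DKO minus E1KO difference in log2(FPKM+1) at 2 months (x) and with CCl4 (y); dotted lines mark 1 and -1, red points the genes higher in both pairs, blue points those lower in both and open orange circles the small RNA models. Most genes lie near 0, the sulfotransferase, Cyp2 and A1bg group lies far to the upper right, Mup20 and Mup21 lie to the lower left, and the small RNA models lie in all quadrants.

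A single test used both pairs at once. It was a limma fit with additive terms for genotype and condition on the 8 columns of 4 genotypes at 2 months and with CCl4 (3 residual degrees of freedom), adjusted by Benjamini-Hochberg over 11513 genes. With 1 column per group its spread is the departure from additivity rather than the spread between animals. At an adjusted p of 0.05, 15 genes rose in DKO relative to E1KO (0.13%) and 4 fell (0.0347%). All 19 are among the genes past 1 in both pairs. The estimate is the mean of the same 2 pair differences, so this overlap is not separate support for either list. At an unadjusted p of 0.05, 540 were higher and 274 lower. With no difference in any gene, a share of 0.05 of the 11513 would be expected to pass unadjusted. The 2 counts together exceed that share, but they do not say which genes differ and are not read as a result. The smallest adjusted p belonged to A1bg, which encodes a plasma glycoprotein, with an estimate of 3.27 (SE 0.11, adjusted p = 0.00198, limma). Cyp2b9, a steroid- and drug-metabolising cytochrome P450, followed with 4.76 (SE 0.27, adjusted p = 0.0163, limma). Hao2, a peroxisomal hydroxyacid oxidase, had 4.19 (SE 0.24, adjusted p = 0.0163, limma). A1bg, Cyp2b9 and Hao2 were under 1 FPKM in E1KO in both pairs, so they were compared only through DKO, which fixes their direction. Their WT, E1KO and E2KO values were at most 0.56 FPKM in the 8 columns, where log2(FPKM+1) leaves little spread.

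The other 12 genes that rose had an adjusted p of 0.0431 to 0.0440 and came from several functions. The largest estimates among them were those of the sulfotransferase Sult2a7 (2.69), the fetal mRNA-binding protein gene Igf2bp3 (2.14), the lactate dehydrogenase subunit Ldhb (1.97), the alcohol dehydrogenase Adh6a (1.57) and E130012A19Rik (1.49), which RefSeq calls Epop and which encodes a PRC2-associated protein. The remainder included 1110017F19Rik (1.48), the transporter gene Slc16a5 (1.47), the imprinted gene Sgce (1.29) and the PRC1 gene Bmi1 (1.28). With them were 2210407C18Rik (1.27), the reticulon gene Rtn4 (1.16) and the cyclophilin gene Ppic (1.16). Sult2a7, Igf2bp3, Adh6a and 2210407C18Rik were under 1 FPKM in E1KO in both pairs, so they too were compared only through DKO. The 4 that fell were the major urinary protein gene Mup21 (-3.32, adjusted p = 0.0431), the lipocalin gene Lcn13 (-1.65, adjusted p = 0.0431), Mir5100 (-5.49, adjusted p = 0.0431), a small RNA model, and Gm12238 (-1.90, adjusted p = 0.0258). RefSeq lists Gm12238 as a snoRNA, although its symbol leaves it among the genes counted without small RNA models. Mir5100 and Gm12238 were listed at 0 in WT, E2KO and DKO in both conditions, so only the E1KO columns had a value. A fit on the 4 DKO and E1KO columns alone, with 1 residual degree of freedom, called none, with a lowest adjusted p of 0.207, and so did the 8-column fit restricted to genes that reached 5 FPKM.

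Genes that female mouse liver expresses more than male liver made up the largest group. Of the 28 female-biased genes compared at 2 months 20 were higher in DKO and none lower (median difference 1.50), against 1.4% of all genes higher. With CCl4 it was 22 of 31 and none (median 1.71), against 3.45% of all genes higher. Among the 27 compared in both pairs 18 were higher in each, against 0.73% of all genes. Of these 18, A1bg, Cyp2b9 and Hao2 passed the test, and they were compared only through DKO. Since 14 and 15 of the genes were compared only through DKO, those with at least 1 FPKM in E1KO were also counted apart. Among those, 7 of 14 were higher at 2 months (median 0.98) and 9 of 16 with CCl4 (median 1.15). No share over all genes was taken under that filter. Xist stayed between 0.01 and 0.02 FPKM and Eif2s3y, a Y-linked gene, between 17.1 and 27.3 FPKM in the 8 columns, so the female-biased genes were higher in a column that carried Y-linked RNA at the level of the others.

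Cyp2b9 was at 0.30 FPKM in E1KO and 27.4 FPKM in DKO at 2 months, and at 0.56 and 51.2 FPKM with CCl4. WT and E2KO stood between 0.09 and 0.51 FPKM in these 2 conditions, but at 14.8 and 12.4 FPKM at 8 months. Its neighbour Cyp2b13, nearly identical in sequence, went from 0.02 to 2.58 FPKM and from 0.02 to 1.59 FPKM, and reads of the pair may be split between them. Cyp2a4, a steroid 15-alpha-hydroxylase gene in the same cluster on chromosome 7, stood at 14.4 and 124 FPKM in E1KO and DKO at 2 months and at 2.08 and 191 FPKM with CCl4. For Cyp2a4 the E1KO column at 2 months was itself above WT (0.39 FPKM) and E2KO (0.48 FPKM). Its near-copy Cyp2a5 did not differ at 2 months (409 and 406 FPKM) but was at 2.42 and 225 FPKM with CCl4, and the 2 genes may share reads.

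The sulfotransferases of the Sult2a family conjugate bile acids and steroids. Sult2a1 stood at 0.05 and 12.8 FPKM in E1KO and DKO at 2 months and at 0.07 and 52.7 FPKM with CCl4, and its estimate of 4.68 narrowly missed the threshold (adjusted p = 0.0559, limma). Sult2a2 and Sult2a5, which lie beside Sult2a1 on chromosome 7 with no protein-coding gene between, were at no more than 0.02 FPKM in E1KO and at 2.96 and 1.23 FPKM in DKO at 2 months, and at 25.7 and 6.90 FPKM in DKO with CCl4. These copies are alike enough that the division between them is uncertain. Sult2a7 rose, with 0.73 FPKM in E1KO and 11.2 FPKM in DKO untreated, and 0.30 and 6.71 FPKM with CCl4.

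Hao2 stood at 0.18 and 27.1 FPKM in the untreated pair and at 0.04 and 13.5 FPKM in the CCl4 pair, and A1bg at 0.16 and 9.62 FPKM and at 0.12 and 10.3 FPKM. No WT or E2KO column of either gene passed 0.09 FPKM in these 2 conditions. Cyp3a44, a P450 gene of the Cyp3a family, stood at 0.46 and 5.63 FPKM at 2 months and at 1.27 and 27.2 FPKM with CCl4. Cyp2c40 and Cyp2c69 were at 14.99 and 15.7 FPKM in E1KO and at 73.8 and 89.5 FPKM in DKO at 2 months, but at 0.03 and 1.31 FPKM and at 3.25 and 3.80 FPKM with CCl4, so all 4 CCl4 values lay below those at 2 months. These 2 genes are also close copies.

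Genes that male liver expresses more showed the reverse, in fewer members. At 2 months 7 of 34 were lower in DKO and 1 higher (median -0.45), against 0.796% of all genes lower and 1.4% higher. With CCl4 12 of 33 were lower and 5 higher (median -0.41), against 2.01% and 3.45%. The 7 lower at 2 months were lower with CCl4 as well. Mup21, one of the major urinary proteins that carry pheromones, fell, with 920 FPKM in E1KO and 112 FPKM in DKO at 2 months and 252 and 19.7 FPKM with CCl4. Mup20 stood at 6236 and 1487 FPKM and at 5242 and 290 FPKM, with 3519 to 6251 FPKM in the WT and E2KO columns. The Mup genes are close copies, several others were not analysed here, and reads may be divided between those that do.

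Elovl3, a fatty acid elongase, was at 58.7 and 21.4 FPKM in E1KO and DKO at 2 months and at 14.3 and 1.99 FPKM with CCl4. The pi-class glutathione transferases Gstp1 and Gstp2, adjacent copies on chromosome 19, were lower together, Gstp1 at 2480 and 1137 FPKM at 2 months and at 1454 and 513 FPKM with CCl4. Serpina4-ps1, a serine protease inhibitor pseudogene, was at 93.4 and 20.5 FPKM and at 14.7 and 0.56 FPKM. Selenbp2 did not follow the others in level: it stood at 646 FPKM in E1KO and 305 FPKM in DKO at 2 months, both above WT (79.3 FPKM) and E2KO (50.6 FPKM). The male-biased gene that was higher in both pairs was Socs2, a feedback inhibitor of growth hormone signalling that growth hormone itself induces, at 9.92 and 30.3 FPKM and at 4.63 and 14.3 FPKM. Its relative Cish was at 5.68 and 5.12 FPKM at 2 months and at 2.00 and 7.45 FPKM with CCl4. Fewer cells of a type and less RNA per cell cannot be told apart in these whole-liver columns.

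**Figure D2:**
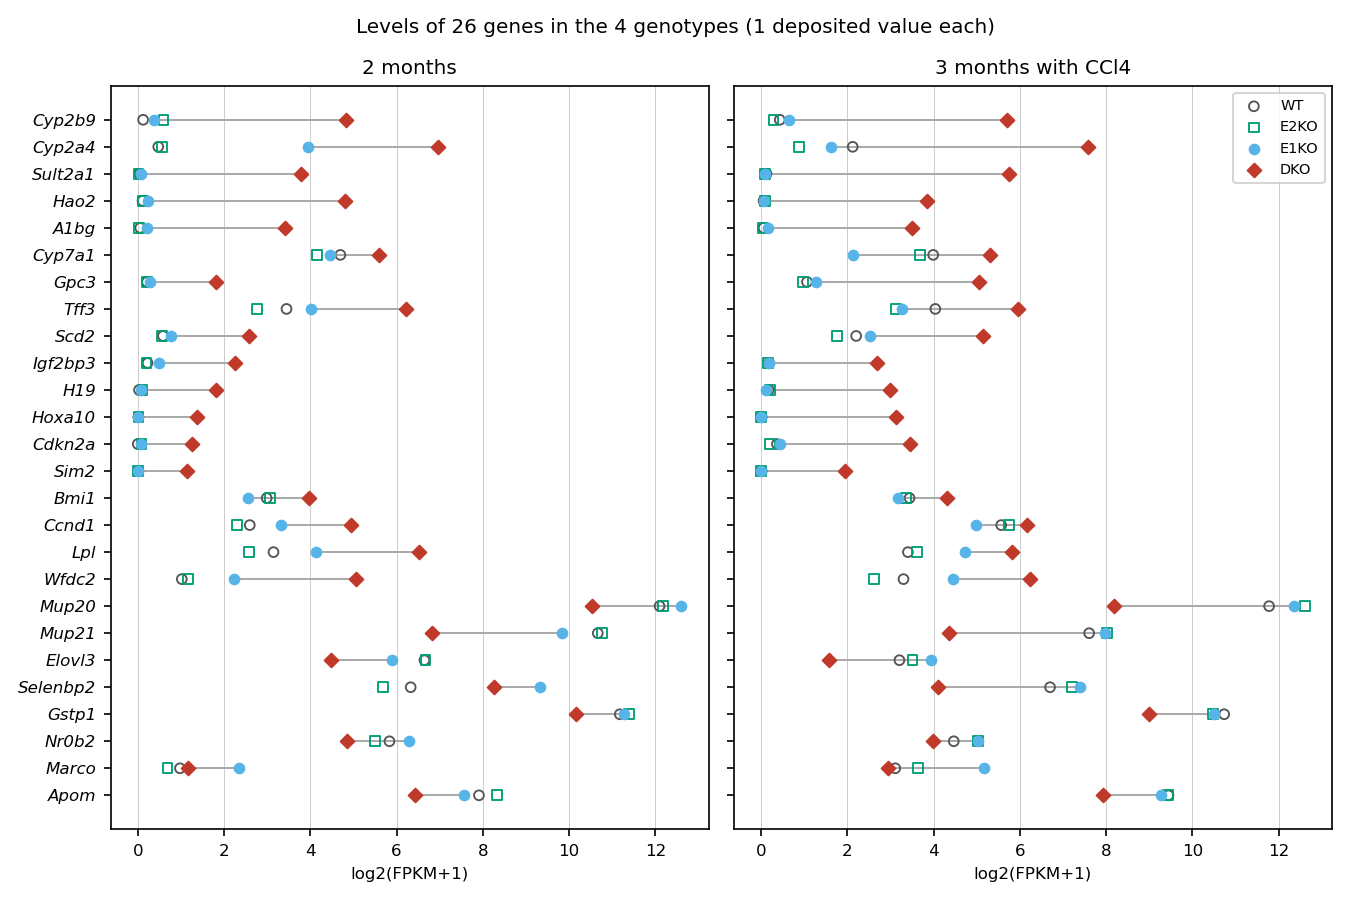
Each row is a gene named in the text and each symbol 1 deposited value in log2(FPKM+1), for WT (open circle), E2KO (open square), E1KO (blue) and DKO (red) at 2 months and with CCl4, with a line from E1KO to DKO. DKO lies alone on the right for the genes from Cyp2b9 to Wfdc2 and on the left for Mup20, Mup21, Elovl3 and Gstp1, while Selenbp2 at 2 months and Marco with CCl4 have E1KO as the outermost value.

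Fetal liver and oncofetal genes, silent or low in adult liver, were another group with more genes higher than lower in DKO. At 2 months 7 of 11 were higher and none lower (median 1.54), against 1.4% of all genes higher. With CCl4 9 of 15 were higher and 1 lower (median 1.09), against 3.45% and 2.01% of all genes. In this group 7 and 6 genes were compared only through DKO, and among those with at least 1 FPKM in E1KO 1 of 4 was higher at 2 months (median 0.08) and 5 of 9 were higher and 1 lower with CCl4 (median 1.02). The 6 higher in both pairs were Gpc3, Tff3, H19, Scd2, Igf2bp3 and Spink3. Igf2bp3 rose, with 0.40 and 3.75 FPKM in E1KO and DKO untreated and 0.13 and 5.45 FPKM with CCl4. Gpc3, a glypican used as a marker of hepatocellular carcinoma, stood at 0.21 and 2.52 FPKM at 2 months and at 1.43 and 32.3 FPKM with CCl4. H19, an imprinted fetal non-coding RNA, was at 0.06 and 2.52 FPKM and at 0.08 and 6.96 FPKM. Tff3, a secreted trefoil peptide, was already expressed in E1KO, at 15.2 and 74.1 FPKM and at 8.67 and 61.4 FPKM. Afp, the fetal counterpart of albumin, did not share the pattern, with 0.79 and 1.16 FPKM at 2 months and 21.4 and 21.1 FPKM with CCl4, and Igf2 was higher with CCl4 alone (0.18 and 11.3 FPKM).

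Classical Polycomb targets were at low levels throughout, and most were compared only because DKO reached 1 FPKM, which fixes the direction of their difference. Of the Hox genes, which give embryonic segments their identity, only Hoxa10 reached 1 FPKM at 2 months; it was listed at 0 in E1KO and at 1.61 FPKM in DKO, and at 0 and 7.75 FPKM with CCl4. With CCl4 9 Hox genes were compared, all of them through DKO alone, and 8 were higher, with a median of 1.76. The 39 Hox genes together summed to 2.31 FPKM in E1KO and 8.94 FPKM in DKO at 2 months, and to 4.54 and 37.4 FPKM with CCl4. Of the developmental transcription factors 1 of 15 was higher and 1 lower at 2 months (median 0.13), against 1.4% and 0.796% of all genes. With CCl4 20 of 30 were higher and none lower (median 1.28), against 3.45% of all genes higher. Of these 15 and 30 genes, 3 and 21 were compared only through DKO. The one higher in both pairs was Sim2, listed at 0 in E1KO and at 1.20 and 2.84 FPKM in DKO. Among those with at least 1 FPKM in E1KO with CCl4, 1 of 9 was higher. No gene of either list passed the test, and the lowest adjusted p was 0.15, for Sim2 (limma).

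Cdkn2a, which encodes the cell cycle inhibitors p16Ink4a and p19Arf, was at 0.05 and 1.40 FPKM in E1KO and DKO at 2 months and at 0.35 and 9.97 FPKM with CCl4. It was the 1 of 5 inhibitors of cyclin-dependent kinases past 1 at 2 months, while Cdkn2b (0.55 and 2.34 FPKM) and Cdkn1c (0.97 and 5.33 FPKM) joined it with CCl4. Cdkn1a, the p53 target, showed no such difference (35.7 and 36.6 FPKM with CCl4). The 3 inhibitors past 1 with CCl4 were compared only through DKO, as was Cdkn2a at 2 months, which fixes their direction. Of the 3 with at least 1 FPKM in E1KO with CCl4, none was higher (median -0.11). Cdkn2a did not pass the test (adjusted p = 0.39, limma). Ccnd1, the cyclin that opens G1 phase, was higher in both pairs, at 8.92 and 29.6 FPKM and at 30.6 and 71.1 FPKM.

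Of the PRC2 and PRC1 subunits that matched by symbol Bmi1 passed the test. None of the 8 PRC2 subunits compared at 2 months, or of the 9 with CCl4, differed by 1, and the median differences were 0.01 and -0.05. Suz12, a core subunit, was at 6.26 and 6.39 FPKM and at 8.45 and 8.66 FPKM, and Eed at 4.83 and 4.59 FPKM and at 9.07 and 6.11 FPKM. Of 18 and 19 PRC1 subunits compared only Bmi1 was past 1. Bmi1 rose, with 4.88 and 14.8 FPKM in E1KO and DKO at 2 months and 8.05 and 18.8 FPKM with CCl4, against 6.94 to 9.87 FPKM in the WT and E2KO columns. Epop, a PRC2 list member that the table holds as E130012A19Rik and that is therefore outside these counts, rose from 1.82 to 6.28 FPKM and from 2.60 to 9.95 FPKM.

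The promoters of 6 of these genes are shown because CpG content is a feature of many Polycomb-bound promoters and differs widely among these 6, which were picked after their expression was seen. Each is the 250 bases before the start of the gene in RefSeq on GRCm38.p6, written 5′ to 3′ on the gene's strand, with every CpG in capitals. Over the 27025 genes of that table the median number of CpG in this window is 6.
Cyp2b9 (chr7:26173159-26173408, + strand): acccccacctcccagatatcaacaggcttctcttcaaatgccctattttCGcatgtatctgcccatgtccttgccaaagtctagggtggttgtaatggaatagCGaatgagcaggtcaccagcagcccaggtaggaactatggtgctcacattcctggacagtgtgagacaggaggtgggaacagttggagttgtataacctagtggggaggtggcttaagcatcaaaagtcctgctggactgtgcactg
A1bg (chr15:60921271-60921520, - strand): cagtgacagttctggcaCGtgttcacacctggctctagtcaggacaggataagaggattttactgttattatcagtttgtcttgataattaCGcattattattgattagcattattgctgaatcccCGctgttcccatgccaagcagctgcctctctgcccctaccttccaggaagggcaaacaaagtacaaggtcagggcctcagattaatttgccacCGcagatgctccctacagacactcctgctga
Mup21 (chr4:62150842-62151091, - strand): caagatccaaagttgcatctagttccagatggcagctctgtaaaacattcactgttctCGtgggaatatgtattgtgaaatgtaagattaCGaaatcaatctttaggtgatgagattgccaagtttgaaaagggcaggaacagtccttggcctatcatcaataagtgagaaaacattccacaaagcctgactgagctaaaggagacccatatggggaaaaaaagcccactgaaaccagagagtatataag
Hoxa10 (chr6:52234940-52235189, - strand): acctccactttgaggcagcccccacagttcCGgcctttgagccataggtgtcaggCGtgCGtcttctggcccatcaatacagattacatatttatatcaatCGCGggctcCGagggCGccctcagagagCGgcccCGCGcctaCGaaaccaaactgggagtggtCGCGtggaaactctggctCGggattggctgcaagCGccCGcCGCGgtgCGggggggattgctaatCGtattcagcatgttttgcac
Cdkn2a (chr4:89294620-89294869, - strand): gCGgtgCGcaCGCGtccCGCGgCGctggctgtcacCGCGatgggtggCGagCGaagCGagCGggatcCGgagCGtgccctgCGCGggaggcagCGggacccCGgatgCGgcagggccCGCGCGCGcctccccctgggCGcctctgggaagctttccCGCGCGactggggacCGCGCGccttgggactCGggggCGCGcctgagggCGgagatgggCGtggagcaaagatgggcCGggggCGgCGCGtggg
Igf2bp3 (chr6:49214955-49215204, - strand): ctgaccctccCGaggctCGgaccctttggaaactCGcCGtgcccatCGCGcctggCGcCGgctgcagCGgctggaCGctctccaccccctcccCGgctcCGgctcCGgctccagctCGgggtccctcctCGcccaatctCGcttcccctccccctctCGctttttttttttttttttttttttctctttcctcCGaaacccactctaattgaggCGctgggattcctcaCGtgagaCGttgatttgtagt
The sex-biased genes Cyp2b9 and Mup21 hold 2 CpG each and A1bg holds 4, while Hoxa10 holds 20, Igf2bp3 21 and Cdkn2a 40 at the starts shown. Hoxa10 and Cdkn2a each have another start in RefSeq, whose window holds 7. For both genes the start shown is the one with more CpG, so the contrast depends in part on the start. The letters TTCNNNGAA, a motif bound by STAT factors that reads the same on both strands, occur 1 time in the A1bg window and in none of the other 5, and in 7.18% of all windows. Promoter entries were found by symbol for 39 of the 72 genes (54.2%) and 10 of the 29 (34.5%), too few to describe the CpG content of either set.

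Bile acid synthesis showed opposite values for an enzyme and its repressor. Cyp7a1, the rate-limiting enzyme, was at 20.8 and 47.3 FPKM in E1KO and DKO at 2 months and at 3.38 and 38.5 FPKM with CCl4. Nr0b2 (SHP), a nuclear receptor that represses Cyp7a1, was at 77.1 and 28.0 FPKM and at 31.5 and 14.8 FPKM. They were the only 2 of the 23 bile acid genes compared in both pairs that were past 1 in each, and neither passed the test. The E1KO column was in part the outlying one. With CCl4 Cyp7a1 was at 14.9 FPKM in WT and 11.85 FPKM in E2KO, and at 2 months Nr0b2 was at 56.1 and 44.1 FPKM. At 8 months neither was past 1: DKO minus WT was 0.29 for Cyp7a1 and -0.59 for Nr0b2, and DKO minus E2KO 0.12 and -0.05. The medians of the bile acid list were -0.12 and 0.20.

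In lipid handling the members again went both ways. Lpl, which releases fatty acids from circulating lipoproteins and is low in normal adult liver, stood at 16.5 and 90.2 FPKM at 2 months and at 25.5 and 55.5 FPKM with CCl4. Fitm1, which takes part in forming lipid droplets, was lower, at 47.8 and 14.1 FPKM and at 6.94 and 2.39 FPKM. Scd2, a desaturase of fetal liver, was at 0.71 and 4.96 FPKM and at 4.79 and 34.2 FPKM, while the adult form Scd1 was at 1014 and 1119 FPKM at 2 months and differed only with CCl4 (149 and 592 FPKM). Apom, an apolipoprotein of high-density lipoprotein, was at 188 and 85.1 FPKM and at 621 and 241 FPKM. Enho, which encodes the peptide adropin, was at 17.0 and 6.59 FPKM and at 26.3 and 7.97 FPKM, just outside the threshold (adjusted p = 0.0618, limma). No gene of fatty acid oxidation differed by 1 in either pair, of 27 and 29 compared.

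Genes known from bile ducts and progenitor cells gave 2 members. Wfdc2, a secreted protease inhibitor of epithelia, was at 3.67 and 32.3 FPKM at 2 months and at 20.97 and 74.4 FPKM with CCl4. Krt23, a keratin, was at 1.62 and 9.51 FPKM and at 0.83 and 3.28 FPKM. The summed level of the 25 cholangiocyte and progenitor markers did not move with them: it was 469 and 553 FPKM at 2 months and 1249 and 1092 FPKM with CCl4, and the median differences were 0.34 and 0.33. Marco, a scavenger receptor of Kupffer cells, was lower in DKO, at 4.09 and 1.24 FPKM and at 35.1 and 6.69 FPKM, but it was the E1KO columns that stood apart, with WT at 0.97 and 7.64 FPKM.

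Among the members in none of the lists, 28 were higher and 10 were lower. The 28 differed by 1.00 to 2.82 at 2 months and by 1.09 to 4.61 with CCl4. Ptgds, a prostaglandin D2 synthase, had the largest mean difference of them, at 0.67 and 9.40 FPKM and at 0.11 and 20.8 FPKM. Calml4, a calmodulin-like gene, was at 0.87 and 6.92 FPKM and at 2.50 and 84.5 FPKM, with WT at 16.04 FPKM with CCl4, so part of that range was present without any knockout. Several are better known from nerve or muscle: Ntf3, a neurotrophin (0.30 and 2.22 FPKM, 0.33 and 4.04 FPKM), Slc30a3, a zinc transporter of synaptic vesicles (0.26 and 2.41 FPKM, 1.50 and 12.7 FPKM), and Slc25a4, the adenine nucleotide carrier of heart and muscle (5.20 and 38.6 FPKM, 26.3 and 65.4 FPKM). Others were Ldhb, at 0.87 and 5.89 FPKM and at 2.82 and 15.01 FPKM, the glutathione peroxidases Gpx3 and Gpx6, the retinoic acid synthase gene Aldh1a2 and the basement membrane collagen gene Col4a5.

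The 10 lower genes outside the lists, with Gm12238 at the 2-month end of the range, differed by -1.79 to -1.02 at 2 months and by -4.31 to -1.36 with CCl4. Beside Apom, Enho and Lcn13 they included Slc39a4, a zinc importer, at 46.2 and 19.4 FPKM and at 30.0 and 7.45 FPKM. Lcn13 fell from 3.34 to 0.39 FPKM and from 4.28 to 0.68 FPKM. Gm5506, which RefSeq calls Eno1b, was at 24.2 and 10.3 FPKM and at 26.5 and 0.39 FPKM. BC002163, which matched no RefSeq symbol, was at 47.9 and 15.2 FPKM and at 10.2 and 0.44 FPKM, and its reads may belong to related genes elsewhere.

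**Figure D3:**
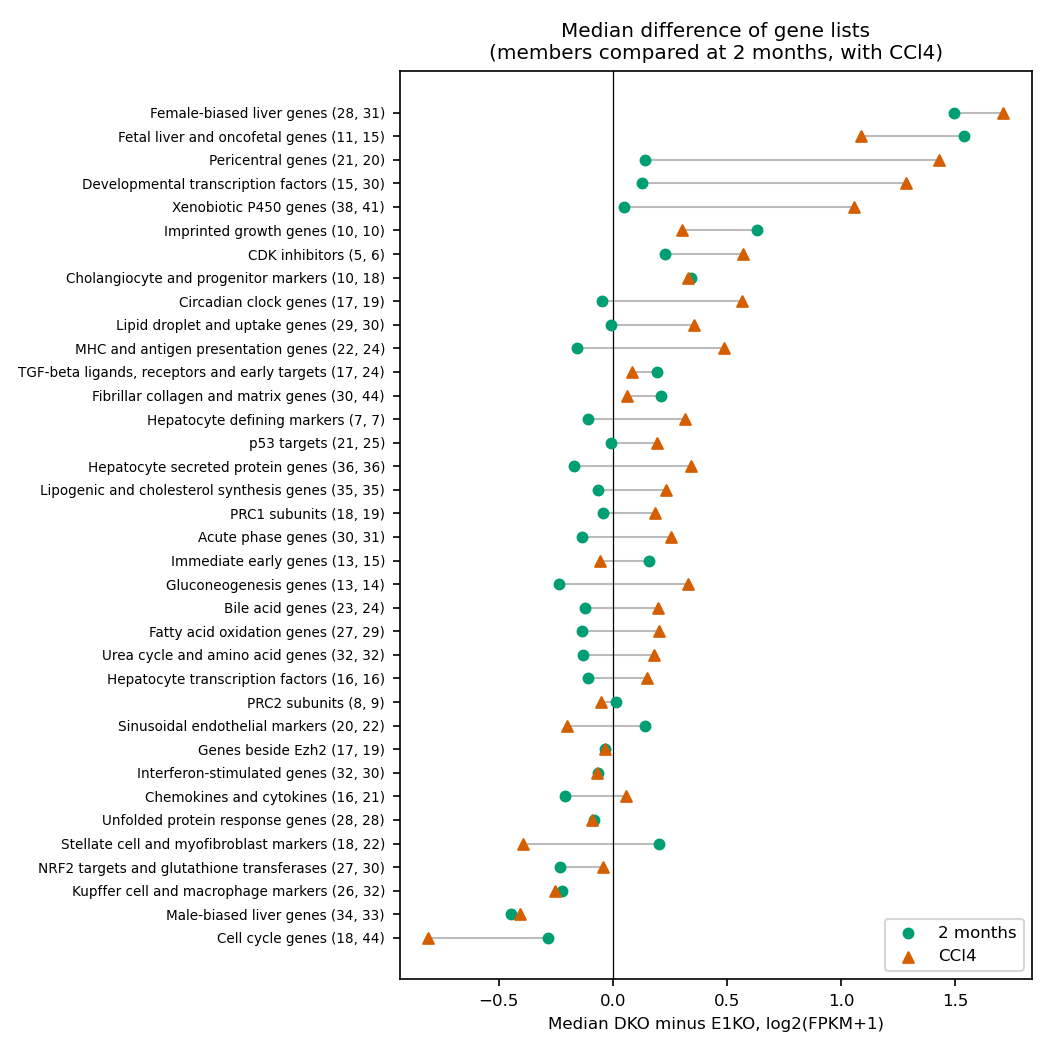
Median DKO minus E1KO difference in log2(FPKM+1) of each gene list at 2 months (circles) and with CCl4 (triangles), for lists with enough members compared, with the numbers compared in brackets. The female-biased and fetal lists lie at 1.09 or more in both pairs, the pericentral, developmental and P450 lists lie near 0 at 2 months and above 1 with CCl4, and the cell cycle list is the lowest with CCl4 at -0.81. Members compared only through DKO raise some medians: with at least 1 FPKM in E1KO the fetal list is at 0.08 and the female-biased list at 0.98 at 2 months, and the developmental list is at 0.14 and the P450 list at 0.67 with CCl4.

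Ezh2 loss in hepatocytes that kept Ezh1 gave hardly any of these differences. E2KO and WT share no column with DKO and E1KO, and between them 0.533% of 10122 genes were higher and 0.988% lower in E2KO at 2 months, and 0.491% and 0.689% of 10588 with CCl4. None of the 65 genes higher in DKO than in E1KO was past 1 upward in E2KO against WT in either condition, and 2 were past 1 downward in each. Their median E2KO minus WT differences were 0.00 and -0.01. Of the 20 lower genes, 3 were past 1 the same way and 1 the other way at 2 months, and none and 1 with CCl4. Genes past 1 in the same direction in both conditions numbered 6 higher and 6 lower in E2KO against WT (0.0623% each of 9626), where DKO against E1KO had 72 and 29.

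The direct test of the difference between these effects, the interaction term of the same limma fit, called 1 gene higher (0.00869%) and none lower (0%) of 11513. At an unadjusted p of 0.05 it had 300 genes higher and 162 lower. The gene was A1bg, for which DKO minus E1KO exceeded E2KO minus WT by 3.29 (SE 0.15, adjusted p = 0.0134, limma), and it was not called with a pseudocount of 0.1 (adjusted p = 0.0944), with stricter filters or with the 8-month columns added (adjusted p = 0.557). Cyp2b9 (4.60) and Hao2 (4.17) had estimates of similar size to their DKO minus E1KO differences and an adjusted p of 0.114 each. The members were chosen for a large difference without Ezh1, so their smaller difference with Ezh1 is a description of columns, and A1bg is the 1 called difference.

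**Figure D4:**
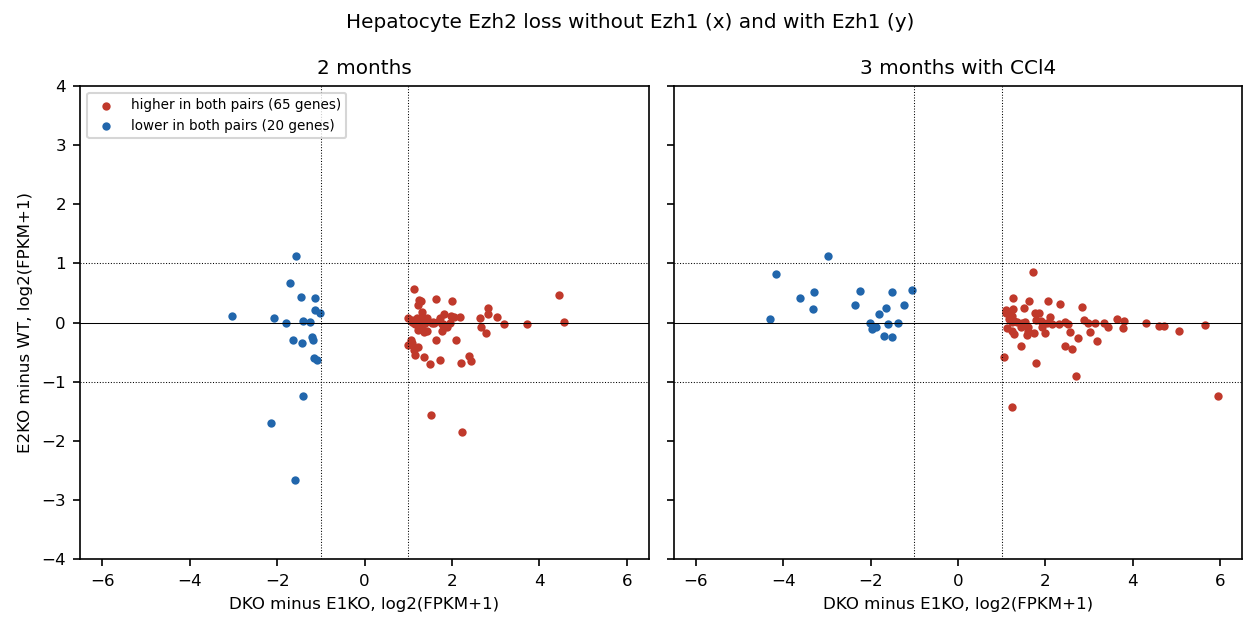
For the 65 higher (red) and 20 lower (blue) genes without small RNA models, the DKO minus E1KO difference (x) is plotted against the E2KO minus WT difference (y), both in log2(FPKM+1), at 2 months and with CCl4; dotted lines mark 1 and -1. The red points spread from 1 to beyond 4 along x and stay between -2 and 1 along y.

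The 8-month columns of DKO, WT and E2KO, which took no part in choosing the genes, gave a check in another sample. At 8 months 34 of the 65 higher genes were past 1 upward in DKO against WT and none downward, where 3.39% of 10565 genes were higher, and 40 of the 65 were past 1 upward and 2 downward in DKO against E2KO, where 4.62% of 10693 were higher. The median differences of the 65 were 1.08 and 1.17. Of the 20 lower genes 12 were past 1 downward in DKO against WT and 2 upward (1.33% of genes were lower), and 10 were past 1 downward in DKO against E2KO and 2 upward (2.36% lower). These comparisons are with WT and E2KO rather than with E1KO, so they include the loss of Ezh1 in addition. Neither Cyp2b9 nor Hao2 was past 1 at 8 months: Cyp2b9 was 0.73 and Hao2 0.56 above WT, which itself stood at 14.8 and 2.74 FPKM.

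With CCl4 alone a further set of liver genes separated DKO from E1KO. Of 21 pericentral genes compared, which are expressed around the central vein where CCl4 is activated, none differed by 1 at 2 months (median 0.14). With CCl4, however, 11 of 20 were higher in DKO and none lower (median 1.43), against 3.45% of all genes higher. Among the 13 with at least 1 FPKM in E1KO, 8 were higher (median 1.52). Cyp2e1, the main P450 that activates CCl4, was at 5724 and 4759 FPKM in E1KO and DKO at 2 months and at 151 and 3857 FPKM with CCl4. WT and E2KO stood at 464 and 386 FPKM with CCl4, so among the treated columns DKO alone lay near the level of its genotype at 2 months. The 2-month columns are of younger mice, so this comparison mixes treatment and age. Glul, the glutamine synthetase of the cells next to the central vein, was at 22.6 and 138 FPKM in E1KO and DKO with CCl4, and Oat, an ornithine aminotransferase of the same cells, at 37.4 and 173 FPKM. The treated WT and E2KO columns stood between 14.9 and 36.8 FPKM for both genes. The glutamate transporter Slc1a2 was at 0.27 and 10.8 FPKM, and Rgn at 236 and 1012 FPKM. The whole list summed to 1999, 1222, 1795 and 6919 FPKM in WT, E1KO, E2KO and DKO with CCl4, against 8471 to 10143 FPKM at 2 months.

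Xenobiotic P450 genes also differed more with CCl4, but unlike the pericentral genes some were already higher at 2 months. At 2 months 8 of 38 were higher and 1 lower (median 0.05), against 1.4% and 0.796% of all genes. With CCl4 21 of 41 were higher and 4 lower (median 1.06), against 3.45% and 2.01%. The 7 higher in both pairs are all on the female-biased list as well, so they are not a separate result. Among those with at least 1 FPKM in E1KO, 16 of 35 were higher and 4 lower with CCl4 (median 0.67). Cyp2c37 was at 153 and 195 FPKM at 2 months and at 5.91 and 185 FPKM with CCl4, and Cyp2c29 at 716 and 608 FPKM and at 203 and 1352 FPKM. Cyp2f2, which is periportal, went the other way with CCl4 (288 and 51.7 FPKM). No gene of the pericentral list passed the test, which averages both conditions.

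Proliferation genes were lower in the treated DKO liver. Of 44 cell cycle genes compared with CCl4 none was higher and 14 were lower (median -0.81), against 2.01% of all genes lower. At 2 months none of 18 was past 1 (median -0.28). Birc5, which mitotic cells need for cytokinesis, was at 49.5 and 20.4 FPKM in E1KO and DKO, the mitotic kinase gene Cdk1 at 20.95 and 9.49 FPKM, and Ccnb1 at 14.3 and 5.35 FPKM. The list summed to 1077, 681, 830 and 358 FPKM in WT, E1KO, E2KO and DKO with CCl4, and to 60.9 to 74.8 FPKM at 2 months. Ccnd1 and Cdkn2a, both higher in DKO, thus stood in a column with lower mitotic genes.

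**Figure D5:**
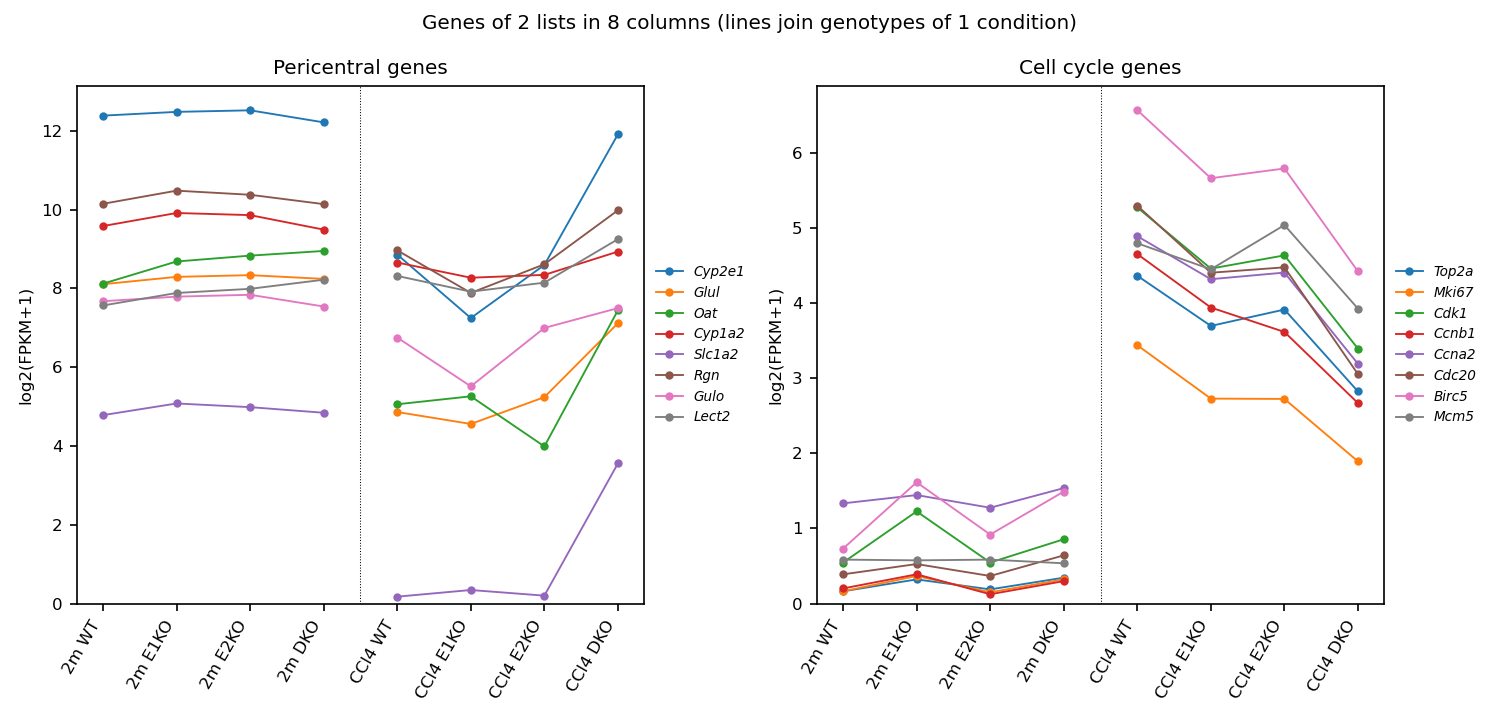
Levels in log2(FPKM+1) of 8 pericentral genes (left) and 8 cell cycle genes (right), picked as well-known members of each list, in the 4 genotypes at 2 months and with CCl4, where each point is 1 deposited value and lines join the genotypes of 1 condition. With CCl4 the pericentral genes are highest and the cell cycle genes lowest in DKO, and at 2 months the 4 genotypes lie close together.

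Of the stellate and myofibroblast list 3 of 22 were higher and 4 lower with CCl4 (median -0.39). The higher ones were Lrat (2.20 and 5.53 FPKM in E1KO and DKO), Lhx2 (1.43 and 4.03 FPKM) and Colec11 (16.1 and 42.4 FPKM), and the lower ones were Acta2, Tagln, Myl9 and Des. Acta2, smooth muscle actin, was at 2.68 and 2.71 FPKM at 2 months and at 64.5 and 6.98 FPKM with CCl4, Tagln at 107 and 19.1 FPKM and the intermediate filament gene Des at 12.2 and 4.52 FPKM with CCl4. WT and E2KO were at 37.6 and 31.4 FPKM for Acta2 with CCl4, between the other 2 genotypes. The matrix list did not move as one, with 2 of 44 higher and 4 lower (median 0.06) and sums of 1561 and 1642 FPKM in E1KO and DKO. Beside these list counts, 3.45% of all genes compared with CCl4 were higher and 2.01% lower. Timp1, a metalloproteinase inhibitor, was at 42.4 and 9.18 FPKM with CCl4.

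Markers of other cells also differed between the treated columns, and their part in these results was not tested. The neutrophil list summed to 1010 FPKM in E1KO and 349 FPKM in DKO with CCl4, against 209 FPKM in WT and 476 FPKM in E2KO. Most of the E1KO and DKO sums was Lcn2 (972 and 291 FPKM), which hepatocytes also make. The list did not fall as one: its median difference with CCl4 was 0.53, with 3 of 5 genes above 0, none past 1 upward and 1 past 1 downward. The macrophage list summed to 1713 and 1549 FPKM, against 890 FPKM in WT and 1068 FPKM in E2KO, with 1 of 32 higher and 2 lower. Erythroid genes were lower in 3 of 4 compared, and their sum was 84.0 and 37.1 FPKM. The 7 hepatocyte markers summed to 2527 and 6644 FPKM with CCl4, a difference carried by Cyp2e1, and to 9989 and 8733 FPKM at 2 months. Sinusoidal endothelial markers were higher in none of 22 and lower in 1. For the counts of these lists, the shares over all genes compared with CCl4 were 3.45% higher and 2.01% lower.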

How the data were processed

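Liver RNA was sequenced from libraries made with the TruSeq kit and SuperScript II from 1 ug of total RNA, per the labels' protocols. The authors deposited 1 table of FPKM values on mouse assembly mm9, to 2 decimals, with 22520 genes and 1 column per group. The submitters' processing notes name CASAVA, TopHat and Cufflinks for the series, beside BWA, SICER and HOMER; the sources used here give no versions or settings. The table gives no depth, so no counting interval is given. The 9 ChIP samples are not analysed here.

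From these values, differences of log2(FPKM+1) were taken on the deposited scale with Python 3.11.15 and pandas 2.3.3, for genes that reached 1 FPKM in 1 or both columns of a pair. The limma 3.58.1 fit (R 4.3.3, eBayes with a trend, two-sided, Benjamini-Hochberg over 11513 genes) was also run on simulated data with normal noise. That run checked that shifts put into the DKO columns were recovered in size, and set no limit on false calls. In a comparison of 1 column with 1 column no p is given. Genes were named by rule: Ezh1, Ezh2, Eed and Suz12, the 15 largest mean differences each way in both pairs, the 5 smallest limma p each way, up to 4 members of each list past 1 in both pairs, the 3 smallest interaction p each way, and 3 genes of opposite direction. Other genes named in the text, including those of the CCl4 pair alone, were picked after their values were seen. The comparison and the 45 gene lists were chosen with earlier results of these data known. Of the 101 genes past 1 in both pairs, 99 matched a RefSeq symbol; promoters are from RefSeq on GRCm38.p6 and no mm9 coordinates are given. Alternatives covered the pseudocount, the filter, the scaling, the columns in the fit, the eBayes settings and, added after seeing the data, leaving out small RNA models.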

Additional observations from a re-analysis of the deposited data

Results flagged for a closer look

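A1bg is the 1 gene for which the effect of hepatocyte Ezh2 loss differed by test in the main fit between livers without and with Ezh1. The estimate of that difference was 3.29 on the log2(FPKM+1) scale (adjusted p = 0.0134, limma interaction, 8 columns). The call depended on the settings. It was lost with a pseudocount of 0.1 (adjusted p = 0.0944, limma interaction), with stricter filters and with 11 columns (adjusted p = 0.557, limma interaction). In the 8 columns the WT, E1KO and E2KO values of A1bg were at most 0.16 FPKM, where log2(FPKM+1) leaves little spread.

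Apart from small RNA models, 3 genes differed by 1 or more in opposite directions in the 2 pairs, and this difference between conditions was not tested. Il1r1, the interleukin-1 receptor, had a DKO minus E1KO difference of -1.15 at 2 months and 1.02 with CCl4. Lpin1, a phosphatidate phosphatase of lipid synthesis, had -1.02 and 1.73. Phlda1 had -1.19 and 1.02. A further 16 small RNA models went in opposite directions, also untested, most of them with 1 column of a pair listed at 0.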

How the results depend on the processing

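The counts of genes past 1 moved mainly with the handling of low values. At 2 months the 144 higher genes became 234 with a pseudocount of 0.1, 58 when both columns had to reach 1 FPKM, 95 with a filter of 5 FPKM and 92 without small RNA models, and the 82 lower became 49 when both columns had to reach 1 FPKM and 37 without small RNA models. With CCl4 the 382 higher became 225 when both columns had to reach 1 FPKM, and the 223 lower became 360 with a pseudocount of 0.1. In both pairs the 72 higher became 111 with a pseudocount of 0.1, 28 when every column had to reach 1 FPKM and 38 with a filter of 5 FPKM, and the 29 lower became 16 when every column had to reach 1 FPKM. The limma counts depended on more choices. The 15 that rose became 26 with a pseudocount of 0.5, 69 with no filter, 5 with 1 FPKM in every column, 0 with a filter of 5 FPKM, 25 with median-of-ratios size factors, 32 with columns rescaled without their 10 most abundant genes, 8 with 11 columns (8 months added, without its E1KO column), 68 with all 12 columns, 0 with the 4 DKO and E1KO columns, 24 with robust eBayes and 35 without small RNA models. The 4 that fell became 23 with no filter, 1 with 1 FPKM in every column, 0 with a filter of 5 FPKM, 11 with 12 columns and 0 with 4 columns. The interaction count of 1 higher gene became 0 with a pseudocount of 0.1, no filter, 1 FPKM in every column, a filter of 5 FPKM or 11 columns, 4 with 12 columns and 3 without small RNA models; its count of 0 lower became 1 with a pseudocount of 0.1 (Snord95) or 11 columns (Gm12238). No named value changed sign among the settings run, and of the list medians only those of the lipid droplet, p53 and Ezh2 neighbour lists at 2 months did, all close to 0, with median-of-ratios size factors; A1bg kept a positive interaction (5.56 with a pseudocount of 0.1 and 2.76 with 11 columns), and the cause of these changes was not tested beyond the number of genes and columns that each setting leaves. Rescaling moved 2 or 3 of the 61 named values by more than their spread over the 2 pairs, and a pseudocount of 0.1 moved 29. No paired analysis was possible because each group has 1 column, in which the replicates named in the titles are merged, so that replicate numbers pair no columns; the additive fit pairs genotypes within a condition only. For the same reason no replicate could be left out.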
